A study of Mus musculus with 21 samples.

Results

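Cardiomyocytes purified from differentiating mouse embryonic stem (ES) cells were compared with the whole embryoid bodies from which such cells are drawn. The comparison comprises 6 of the 21 samples of the series, chosen by their source labels: 3 of ES cell-derived cardiomyocytes (CM) and 3 of ES cell-derived whole embryoid bodies (EB), all collected on day 16 of differentiation. CM had been selected from day 9 on in medium with 8 µg/ml puromycin, which the EB, taken from the same batches, never received. Both groups came from 1 line, αPIG D3 ES cells, which carries a construct that places a puromycin resistance gene and green fluorescent protein under the promoter of Myh6, the gene of the cardiac alpha myosin heavy chain. Replicates 1, 2 and 3 stemmed from undifferentiated cultures at passages 7, 9 and 10, and each CM sample shares its passage with the EB sample of the same number. Each sample is a pool of many aggregates from spinner flasks, so no value belongs to a single EB or cardiac cluster. Undifferentiated ES cells and adult tail tip fibroblasts (age 8 weeks, passages 2, 3 and 4) are named only where a result refers to them. So are the matching CM and EB of an induced pluripotent stem (iPS) cell line with the same construct. Day and drug were the same there, and passages were 5, 7 and 8. All 21 arrays entered the normalization, the probe filter and the model, so the tests of the ES comparison rest on them too.

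Embryoid bodies are aggregates in which pluripotent cells differentiate without direction into derivatives of all germ layers, and some regions begin to beat. Heart muscle cells are recognised by the sarcomere, the array of thick myosin and thin actin filaments that shortens when calcium is released from the sarcoplasmic reticulum, and by a set of transcription factors that includes Nkx2-5, Gata4 and Mef2c. Pluripotent cells are held in their state by Pou5f1, Sox2 and Nanog and divide fast, while cardiomyocytes slow their cell cycle as they mature and draw increasingly on fatty acid oxidation. Puromycin blocks translation and kills cells that do not express the resistance gene.

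Each sample was hybridised to an Illumina bead array of 45281 probes, and values are log2 intensities after background correction and quantile normalization with an offset of 16. A probe was called detected at a detection p under 0.01. Between 14246 and 14964 probes were detected on CM arrays, against 16227 to 17866 on EB arrays. The cardiomyocyte label matched its markers: all 7 tested of 8 chosen were higher in CM, and their median log2 change was 5.00. Myh6, whose promoter drives the selection, is among them, and all 7 recur in the gene lists below. CM replicates correlated across probes at 0.992 to 0.996. EB replicate 1 stood apart from the other 2 EB samples, with 484 of 21047 tested probes at least 2-fold off their mean, against 84 probes for each of the other EB samples and 2 to 35 probes for the CM samples. Results that rest on it are given with and without it. Selection, drug exposure and cell composition all differed between CM and EB and cannot be told apart, nor can fewer cells of a type and less RNA per cell.

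The 2 populations differed across most of the transcriptome that could be measured. Of 21047 tested probes, 13112 passed the test (62.3%; limma, Benjamini-Hochberg adjusted p under 0.05), 6591 of them higher in CM (31.3%) and 6521 lower (31.0%). Fitted differences of at least 2-fold were found for 2966 probes higher in CM (14.1%) and 3046 lower (14.5%), which stand for 1952 and 2079 genes. The 3 CM and 3 EB values did not overlap for 7335 probes higher in CM (34.9%) and 7621 lower (36.2%). The median change over all tested probes was -0.02. These shares are the background against which the gene lists below are read, since close to 31% of all probes were called in either direction alone. Quantile normalization gives every array the same distribution of values, so the near-even split and the small median change partly follow from it. With arrays scaled to a common median instead, 4612 probes were called higher in CM and 5592 lower.

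**Figure D1:**
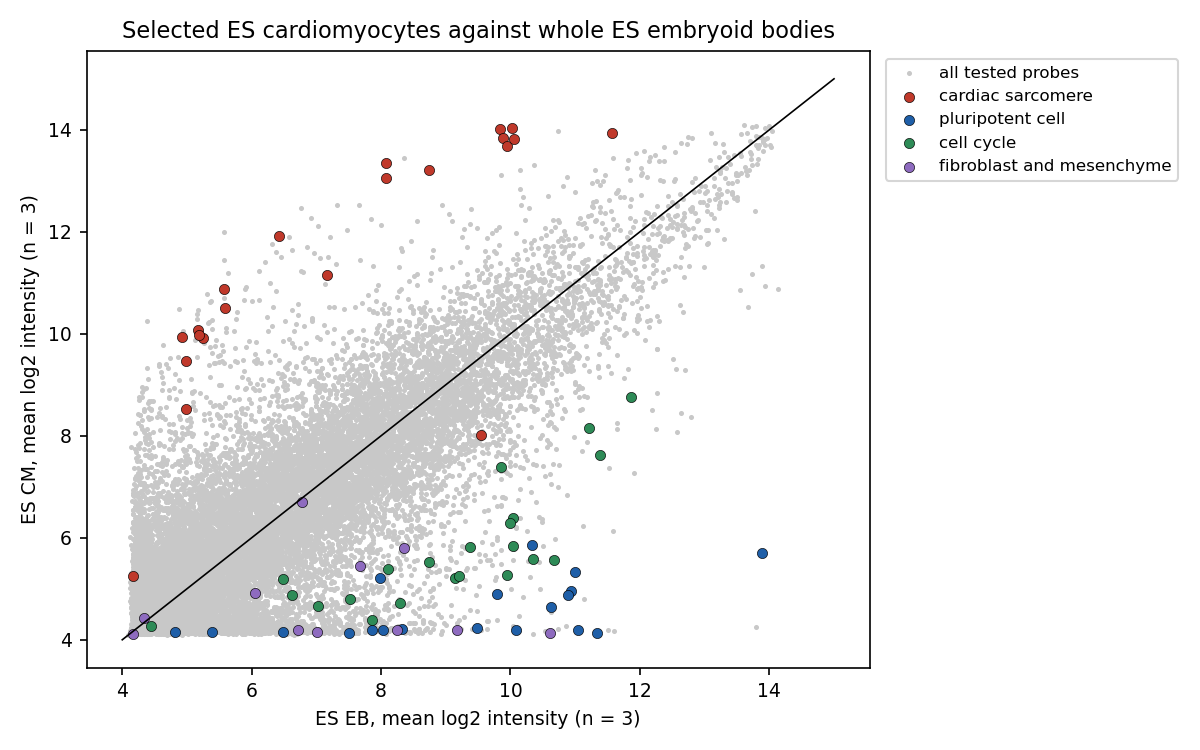
Mean log2 intensity in CM (vertical axis) against EB (horizontal axis), n = 3 each, for 21047 tested probes in grey and for 4 gene lists in colour; the line marks equal values. Sarcomere genes lie above the line except Tpm1, and pluripotency and cell cycle genes lie below it.

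The promoter that selects the cells and those of 3 genes with large changes are shown here, as the windows from 250 bases before to 50 bases after the annotated start (RefSeq, GRCm38.p6, read on the gene's strand). They are Myh6 (chr14:54966558-54966857, minus strand), the atrial myosin light chain gene Myl7 (chr11:5898733-5899032, minus strand), the natriuretic peptide gene Nppa (chr4:148000472-148000771, plus strand) and the pluripotency gene Nanog (chr6:122707239-122707538, plus strand, the first of 2 listed windows). Capitals mark TATAAA, the GATA-type motif GATAA and the octamer-type motif ATGCAAA on either strand.
Myh6: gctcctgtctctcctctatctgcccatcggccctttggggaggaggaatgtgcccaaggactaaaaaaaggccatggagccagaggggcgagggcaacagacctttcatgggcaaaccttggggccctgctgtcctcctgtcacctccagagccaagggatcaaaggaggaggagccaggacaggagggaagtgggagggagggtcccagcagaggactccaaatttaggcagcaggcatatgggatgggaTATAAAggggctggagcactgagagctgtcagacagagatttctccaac
Myl7: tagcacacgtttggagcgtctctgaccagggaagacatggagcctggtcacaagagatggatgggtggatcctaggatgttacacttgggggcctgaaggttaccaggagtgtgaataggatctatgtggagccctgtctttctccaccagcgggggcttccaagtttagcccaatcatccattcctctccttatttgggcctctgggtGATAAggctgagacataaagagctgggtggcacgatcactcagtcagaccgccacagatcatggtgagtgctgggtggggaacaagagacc
Nppa: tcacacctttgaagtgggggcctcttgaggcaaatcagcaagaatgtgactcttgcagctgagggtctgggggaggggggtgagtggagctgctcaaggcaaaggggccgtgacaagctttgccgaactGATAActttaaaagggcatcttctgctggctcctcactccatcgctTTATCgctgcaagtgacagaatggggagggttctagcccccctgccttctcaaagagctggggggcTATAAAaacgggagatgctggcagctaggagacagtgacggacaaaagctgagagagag
Nanog: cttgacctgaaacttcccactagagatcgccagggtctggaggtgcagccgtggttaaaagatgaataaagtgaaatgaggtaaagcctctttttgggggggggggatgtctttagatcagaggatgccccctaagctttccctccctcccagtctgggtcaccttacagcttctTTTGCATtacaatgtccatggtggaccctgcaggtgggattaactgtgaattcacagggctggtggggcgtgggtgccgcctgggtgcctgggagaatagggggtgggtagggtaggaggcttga
The Myh6 window holds 1 TATAAA, the Nppa window holds 1 TATAAA and 2 GATAA, the Myl7 window 1 GATAA and the Nanog window 1 ATGCAAA. Over 32851 promoter windows of this length, 13.6% hold TATAAA, 25.4% GATAA and 4.63% ATGCAAA, so these matches are descriptions of the letters only.

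Genes of the contractile apparatus rose together. Of 21 tested sarcomere genes, 20 were higher in CM and 1, Tpm1, was lower, with a median log2 change of 4.49. Myh6, the motor of the thick filament, had 13.43, 13.40 and 13.22 in CM, against 8.59, 7.69 and 7.96 in EB. The groups were far apart, and the change was 5.27 ± 0.32 (SE; limma, adjusted p = 2.5e-10), or 38.6-fold. Since selection acts through the promoter of this gene, its rise is not independent of how the cells were obtained. Ttn, the giant spring protein titin, had 10.90, 10.90 and 10.84 in CM, against 5.72, 5.35 and 5.62 in EB, which is 39.8-fold higher. Mybpc3, cardiac myosin-binding protein C, was 32.6-fold higher (adjusted p = 1.3e-11), and Tcap, a titin cap protein of the Z-disc, 44.8-fold. The ventricular light chain Myl2 had 14.02, 14.06 and 13.96 in CM, against 10.39, 9.43 and 9.71 in EB. It was thus already bright in EB and lay near the top of the array's range in CM.

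Markers of both chambers rose together. The atrial light chains Myl7 and Myl4 were 13.3-fold and 5.12-fold higher in CM, and the ventricular chains Myl2 and Myl3 were 18.0-fold and 15.5-fold higher. Myl2, Myl3 and Myl4 lay near the top of the array's range in CM, so these folds are not ranked. The fetal troponin I gene Tnni1 and the adult cardiac form Tnni3 were also both called, at 25.4-fold and 30.1-fold. Myh7, the beta myosin heavy chain that predominates in the embryonic mouse ventricle, was far dimmer than Myh6: it had 5.31, 5.16 and 5.27 in CM and was not detected on any EB array, and was at least 1.66-fold higher in CM. Probes of different genes differ in efficiency, so this is no ratio of transcripts. Tpm1, which encodes a tropomyosin found in many cell types, had 7.85, 8.04 and 8.16 in CM, against 10.03, 9.25 and 9.35 in EB, a change of -1.53 ± 0.23 (adjusted p = 1.6e-05). Its other tested probe fell as well, by 1.31. Isoforms could not be separated with these probes.

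**Figure D2:**
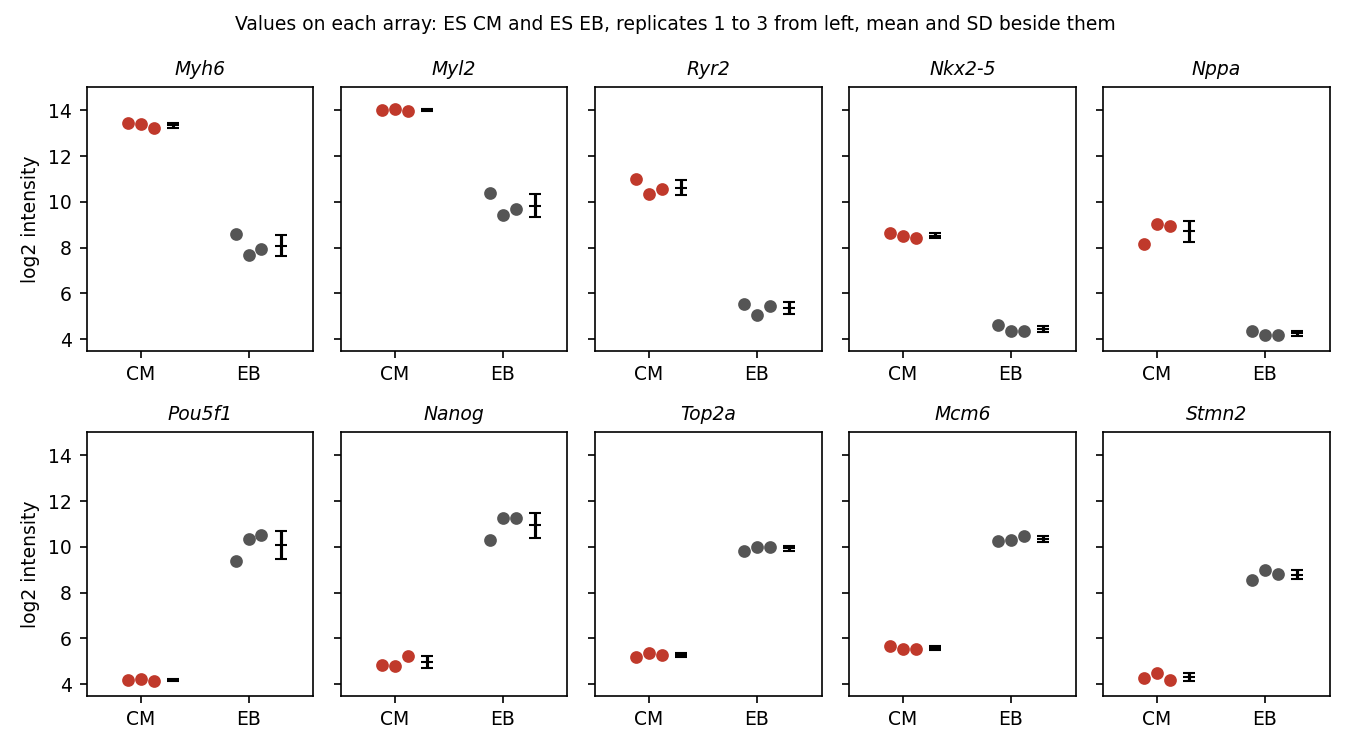
Log2 intensity of 10 genes on each of the 3 CM arrays (red, left) and 3 EB arrays (grey, right), with the mean and SD beside them. The groups do not overlap for any of the 10, and EB replicate 1 (leftmost grey point) is the highest EB sample for Myh6 and Myl2 and the lowest for Pou5f1 and Nanog.

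Calcium handling genes rose with the sarcomere. Of 15 tested genes for calcium handling and membrane excitability, 14 were higher in CM and Gja1 was lower, with a median of 2.88. Ryr2, the calcium release channel of the sarcoplasmic reticulum, had 10.99, 10.33 and 10.57 in CM, against 5.56, 5.05 and 5.45 in EB, a change of 5.28 ± 0.21 (limma, adjusted p = 1.7e-12). Atp2a2, the pump that refills that store, was 9.50-fold higher, its inhibitor phospholamban (Pln) 28.5-fold and the sodium-calcium exchanger Slc8a1 22.2-fold. Hrc, a calcium-binding protein of the reticulum lumen, had 10.27, 10.64 and 10.49 in CM, against 5.53, 5.09 and 4.91 in EB, or 39.2-fold higher. Among channel genes, the T-type calcium channel gene Cacna1g was 7.20-fold higher in CM, the potassium channel subunit gene Kcnj3 1.92-fold, and Kcnj5 and Kcne1, undetected in EB, at least 2.37-fold and 5.80-fold. Gja5, the connexin of atrial and conduction tissue, was 3.72-fold higher. Gja1, the connexin of working myocardium that pluripotent cells also express, had 8.54, 8.60 and 8.52 in CM, against 10.77, 9.89 and 9.87 in EB and a mean of 10.81 in undifferentiated ES cells. The pacemaker channel Hcn4 and the L-type channel Cacna1c were not detected on enough arrays to be tested.

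Cardiac regulators spanned a wide range of change. Of 19 tested transcription factors and natriuretic peptide genes, 17 were higher in CM, none was lower, and Tbx3 and Hey2 were not called by the brightest probe, with a median of 2.35. Nkx2-5 had 8.64, 8.53 and 8.41 in CM, against 4.60, 4.38 and 4.36 in EB, where it was detected on 1 array. The change was 4.08 ± 0.12 (limma, adjusted p = 9.7e-14). Myocd, a coactivator of serum response factor, was 25.2-fold higher in CM, Mef2c 10.6-fold, Tbx20 8.96-fold and Gata6 8.20-fold. Gata4 and Tbx5, by contrast, were dim in CM, at means of 5.22 and 5.36, were not detected in EB, and were at least 1.63-fold and 1.79-fold higher. Isl1, a factor of second heart field progenitors, had 7.88, 8.21 and 8.14 in CM, against 7.57, 6.94 and 6.95 in EB, an increase of 0.92 ± 0.31 (adjusted p = 0.017). That call was lost in 5 of the alternative settings and samples left out, with an adjusted p between 0.055 and 0.063. Tbx3, a factor of both the conduction system and ES cells, had 6.87, 6.99 and 7.12 in CM, against 6.36, 8.63 and 8.38 in EB. EB replicate 1 lay below all CM samples and the other 2 EB samples above them, and without it the change was -1.52 (adjusted p = 0.00029). With all samples, 2 of the other Tbx3 probes were called lower in CM, at -1.64 and -1.37 (adjusted p = 0.0018 and 0.0012).

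Both natriuretic peptide genes were higher in CM. Nppa had 8.18, 9.02 and 8.93 in CM and was not detected on any EB array, at least 18.2-fold higher in CM. Nppb had 7.54, 8.14 and 8.15 in CM, against 5.23, 4.45 and 4.54 in EB, or 9.19-fold higher (limma, adjusted p = 7.2e-08). CM replicate 1 was the lowest CM sample for both. Ankrd1, a stress-responsive protein of the sarcomere, was 41.2-fold higher in CM.

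Genes of oxidative metabolism followed, with smaller changes. Of 21 tested, 20 were higher in CM and Slc25a4 was not called, its probe being undetected in both groups. The median change was 1.89. Muscle isoforms of cytochrome oxidase subunits varied widely. Cox8b had 11.12, 11.62 and 11.60 in CM, against 6.88, 4.56 and 5.30 in EB, a change of 5.87 ± 0.39 (limma, adjusted p = 7.6e-10), and Cox6a2 was 33.8-fold higher, while Cox7a1 was 2.83-fold higher. Myoglobin (Mb) was 34.9-fold higher and Ppargc1a, the coactivator of mitochondrial biogenesis, 15.4-fold. The carnitine palmitoyltransferase Cpt1b, which admits fatty acids to mitochondria in muscle, was 18.7-fold higher in CM. The beta-oxidation enzymes Acadm, Acadvl and Hadhb, which many cells express, were 2.18-fold, 3.70-fold and 3.17-fold higher. Citrate synthase (Cs) was 3.11-fold and Idh3a 5.79-fold higher, and Ldhb, at 1.37-fold, lost its call without EB replicate 1 (adjusted p = 0.077).

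The cell cycle list moved as one in the opposite direction. Of 22 tested genes, 21 were lower in CM and none higher, with a median of -3.52. Their summed linear intensity was 1447 to 1544 in CM, against 19907 to 20387 in EB and 23099 to 25981 in undifferentiated ES cells, so EB lay far nearer to ES cells than to CM. Top2a, the topoisomerase that untangles chromosomes before mitosis, had 5.19, 5.35 and 5.29 in CM, against 9.81, 10.01 and 10.00 in EB, a change of -4.66 ± 0.15 (limma, adjusted p = 2.2e-13). Thymidylate synthase (Tyms) had 5.31, 5.64 and 5.74 in CM, against 10.30, 10.75 and 11.00 in EB, and fell by 5.12. The replicative helicase subunits Mcm2 to Mcm7 were all lower in CM, between -2.72 for Mcm3 and Mcm7 and -4.76 for Mcm6. Of the mitotic kinases and regulators, Cdk1 changed by -3.94, Bub1b by -3.97, Cdc20 by -4.19 and Aurka by -3.55. Ccnd1, the D-type cyclin that couples growth signals to the cycle, changed less, by -2.47, and Pcna by -1.30. Plk1, a mitotic kinase, was not called (adjusted p = 0.48): its probe was detected on no CM array and on 2 EB arrays. Residual signal remained in CM for most of the list, and 3 of 22 genes were undetected there.

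Pluripotency genes had the lowest median of the 18 lists. All 19 tested were lower in CM, with a median of -4.89, and 12 of them were not detected on any CM array. Their summed linear intensity was 182 to 210 in CM, against 27449 to 37896 in EB and 38497 to 41919 in undifferentiated ES cells. At day 16 the whole EB thus still held most of the summed signal of undifferentiated ES cells. Bright genes weigh most in such a sum: the brighter Dppa5a probe averaged 13.88 in EB and 13.83 in those cells. Tdgf1, a dimmer gene, averaged 6.48 in EB, against 7.99 in undifferentiated ES cells. Pou5f1 had 4.20, 4.22 and 4.15 in CM, all undetected, against 9.40, 10.36 and 10.51 in EB, at least 39.5-fold lower in CM (limma, adjusted p = 2.3e-12). Nanog had 4.83, 4.80 and 5.25 in CM, against 10.29, 11.27 and 11.25 in EB, and was 62.9-fold lower in CM while still detected on all 3 CM arrays. Its CM values lay close to the lowest signal called detected on those arrays, 4.76, 4.74 and 4.85. Another Nanog probe averaged 4.13 in CM, against 8.57 in EB. Sall4, a zinc finger factor of the same network, differed by -4.89 ± 0.12 and varied little among EB samples, at 9.74, 9.77 and 9.84. Esrrb and Klf4, 2 factors of naive pluripotency, were lowest in EB replicate 1: Klf4 had 5.15, 5.20 and 5.29 in CM, against 6.18, 8.70 and 9.09 in EB. Dnmt3b, a de novo DNA methyltransferase that is high in primed pluripotent cells, ran the other way among EB samples, with 4.78, 4.91 and 4.91 in CM, against 12.33, 10.19 and 10.16 in EB. All 19 genes were called lower without EB replicate 1 as well.

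Markers of the other cell types an EB can hold were lower in CM for 6 lists and mixed or uncalled for the rest. Many were undetected in CM, and with such members at their bounds the list medians were -1.27 for neural, -0.89 for endoderm, -1.04 for endothelial, -2.22 for fibroblast and -2.74 for epithelial genes, and -4.69 for pluripotency genes. All 7 tested neural genes were lower in CM, with a median of -1.71. Their summed linear intensity was 65.8 to 78.2 in CM, against 851 to 933 in EB and 808 to 968 in undifferentiated ES cells. The list thus does not separate neural cells from ES cells. Stmn2, a microtubule regulator of neurons, had 4.27, 4.49 and 4.18 in CM, all undetected, against 8.57, 8.98 and 8.81 in EB. It was as bright in undifferentiated ES cells, at a mean of 9.51, so its level does not separate neurons from ES cells here. Dcx, a migrating-neuron protein undetected in ES cells, was at least 2.16-fold lower in CM. Of 12 endoderm and hepatocyte genes, 8 were lower in CM and 4 (Afp, Foxa2, Apob and Rbp4) were not called, with a median of -1.41. Here the summed intensity was higher in EB, at 667 to 1310, than in undifferentiated ES cells, at 150 to 182. Ttr, the thyroxine carrier of visceral endoderm and liver, had 4.69, 5.46 and 5.16 in CM, against 9.59, 8.23 and 8.87 in EB, and was detected on 2 CM arrays. The alpha-fetoprotein gene Afp had 4.13 to 4.31 in CM and 4.54 to 5.90 in EB (adjusted p = 0.053).

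All 8 tested endothelial genes were lower in CM, with a median of -1.60 and 7 undetected there. Their summed linear intensity was 43.4 to 57.2 in CM, against 454 to 568 in EB and 306 to 307 in undifferentiated ES cells. Emcn, an endothelial sialoglycoprotein, had 4.23, 4.14 and 4.12 in CM, against 6.93, 7.41 and 7.73 in EB, at least 5.94-fold lower. The weakest call, Pecam1 (adjusted p = 0.044), was lost in 8 of the alternative settings and samples left out, with an adjusted p between 0.054 and 0.2. The other tested Pecam1 probes, which were dimmer, were called lower in CM as well. Their fitted changes were -1.09 and -1.18 (limma, adjusted p = 0.00026 and 4.5e-05). Of 11 fibroblast and mesenchyme genes, 8 were lower in CM and Col1a2, Postn and Twist1 were not called, with a median of -2.52. Their sum was 2983 to 3481 in EB, against 630 to 712 in undifferentiated ES cells. Decorin (Dcn), a collagen-binding proteoglycan, had 4.17, 4.15 and 4.11 in CM, against 10.66, 10.52 and 10.66 in EB, at least 56.8-fold lower (limma, adjusted p = 2.7e-11). Lumican (Lum), its relative, was at least 21.1-fold and Col3a1 at least 4.67-fold lower. Pdgfra, a receptor of mesenchyme and cardiac progenitors, was detected on all CM arrays, at 5.28, 5.52 and 5.50, against 7.77, 7.58 and 7.65 in EB. Of 9 epithelial genes, 8 were lower in CM and Cldn7 was not called, with a median of -3.24. Their summed linear intensity was 87.0 to 93.2 in CM, against 1335 to 3769 in EB and 2441 to 2512 in undifferentiated ES cells, which lies within the range of EB. E-cadherin (Cdh1) had 4.84, 4.41 and 4.59 in CM, against 8.38, 7.73 and 7.48 in EB, and keratin 8 (Krt8) 4.74, 4.96 and 5.17 in CM, against 10.36, 7.92 and 7.99 in EB.

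None of 4 tested blood genes was called by limma, nor had any an unadjusted p under 0.05, and the spread lay in EB. The embryonic globin Hbb-bh1 had 4.18, 4.27 and 4.29 in CM, against 9.49, 4.48 and 4.23 in EB, so that 1 EB sample alone carried it. Hbb-y showed the same pattern, with 4.20, 4.28 and 4.34 in CM, against 7.51, 4.20 and 4.12 in EB, while Ptprc, the pan-leukocyte marker, was undetected in both groups. Of 4 smooth muscle genes, Acta2 and Smtn were higher in CM and Tagln and Actg2 were not called. Acta2, an actin of smooth muscle that immature cardiomyocytes also express, had 13.31, 13.26 and 13.32 in CM, against 10.97, 9.91 and 10.24 in EB. Myh11 and Cnn1, which are more specific to smooth muscle, were not detected on enough arrays to be tested. Of 4 skeletal muscle genes, Myh8 and Tnnt3 were higher in CM, Mylpf was lower and Acta1 was not called, and the myogenic factors Myod1, Myog, Myf5 and Myf6 were not detected on enough arrays to be tested. The only tested germ cell gene, Dazl, had 4.23, 4.23 and 4.55 in CM, all undetected, against 6.13, 8.84 and 9.07 in EB.

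**Figure D3:**
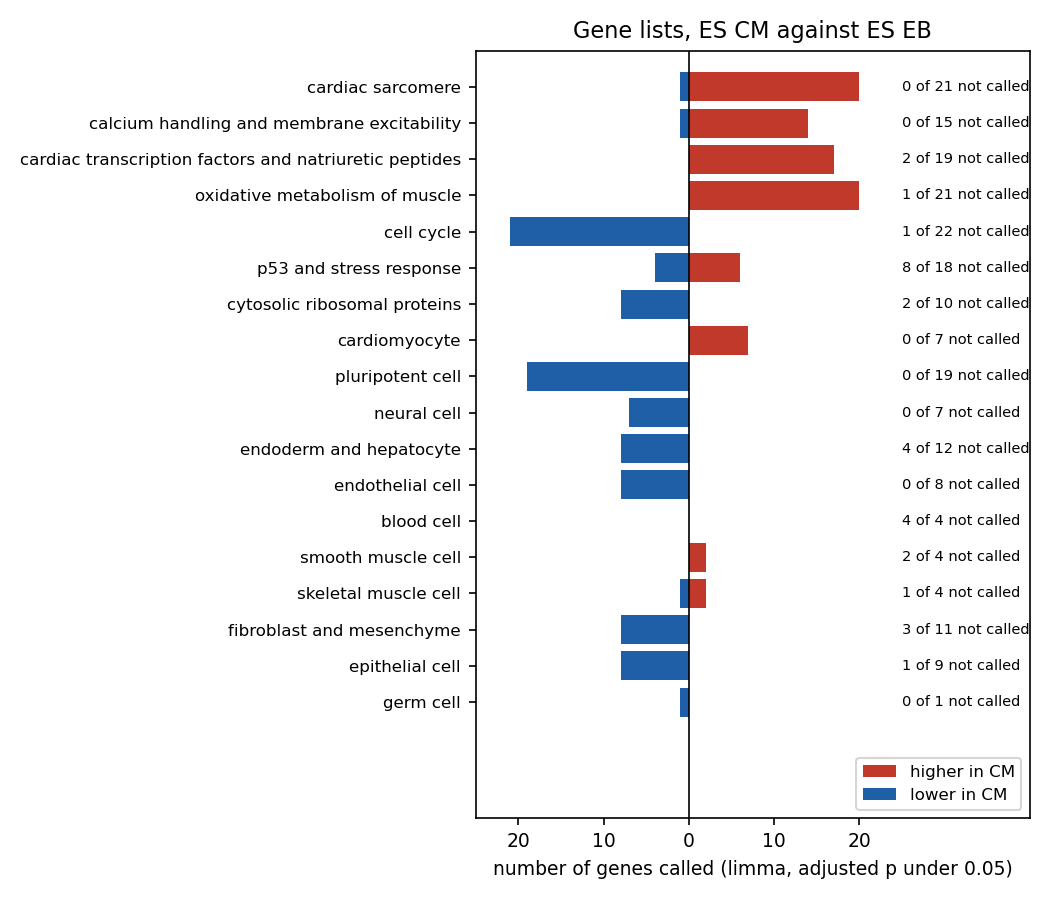
Number of genes called higher (red, right) or lower (blue, left) in CM than in EB for each of 18 lists (limma, adjusted p under 0.05), with the number not called at the right. The first 4 lists are almost wholly higher in CM, and the cell cycle and pluripotent cell lists are wholly or almost wholly lower.

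Stress genes were called in shares near or below those of all probes. Of 18 tested genes of the p53 and stress responses, 6 were higher in CM (Cdkn1a, Atf3, Ddit3, Trib3, Hspa5 and Hmox1), which is 33.3%, against 31.3% of all probes. The 4 lower genes (Mdm2, Sesn2, Asns and Nqo1) made up 22.2%, against 31.0%, and 8 were not called, with a median of 0.17. The cell cycle inhibitor Cdkn1a had 9.85, 9.64 and 9.78 in CM, against 8.68, 8.37 and 8.83 in EB, a change of 1.13 ± 0.26 (limma, adjusted p = 0.0012). Mdm2, like Cdkn1a a target of p53, had 9.37 to 9.44 in CM and 9.74 to 10.46 in EB, a lower call that was lost with arrays scaled to a common median (-0.50, adjusted p = 0.13). Haem oxygenase (Hmox1) had the largest rise, 5.16-fold, with 7.73, 7.79 and 7.78 in CM, against 5.75, 5.40 and 5.05 in EB. Several genes of the amino acid stress response were low in EB replicate 1. Chac1, a glutathione-degrading enzyme, had 8.11, 8.85 and 8.67 in CM, against 6.78, 10.17 and 10.38 in EB, where EB replicate 1 lay below and the other EB samples above CM. Without that sample Chac1 was lower in CM, at -1.73 (adjusted p = 0.00026), and Trib3 differed by 0.38 (adjusted p = 0.14), against 1.30 with it. The Trib3 call was also lost in 2 other settings and without any one of the 3 CM samples (adjusted p from 0.056 to 0.12), while its other 2 probes were called higher, at 0.95 and 0.97.

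Cytosolic ribosomal protein genes were lower in CM by a small amount. Of 10 tested, 8 were lower and Rps24 and Rplp1 were not called by the brightest probe, with a median of -0.51, against -0.02 over all probes. Rpl4 had 8.81, 8.91 and 8.87 in CM, against 10.77, 11.04 and 11.15 in EB, while Rps12 differed by -0.46. With arrays scaled to a common median the list's median was -0.40 and 6 genes were called lower. Ribosomal protein genes have many processed pseudogenes, and probes may read more than 1 copy. The other 2 probes of Rps24 were called lower, at -1.39 and -2.64, and the second probes of Rpl4 and Rplp0 lay at background in both groups.

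Across the lists, 93 of 205 genes had more than 1 tested probe. For 21 of them some probes were called and others were not, and for none were probes called in opposite directions. Over the whole array, 142 of 4424 such genes had probes called in opposite directions.

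The largest single changes did not all belong to the lists. Among the 10 probes with a gene symbol and the largest rises, Tcap and Ankrd1 appeared with 2 probes each, beside Cox8b, Actc1, Myl9, Asb2, Dhrs7c and Avp. Avp, the gene of the hormone vasopressin, ranked first among them, below 1 probe with no symbol listed: it had 10.27, 10.29 and 10.23 in CM, against 4.75, 4.22 and 4.19 in EB, a change of 5.88 ± 0.28 (limma, adjusted p = 1.5e-11). Dhrs7c, a reductase of the sarcoplasmic reticulum, was 48.4-fold higher, and Asb2, a ubiquitin ligase subunit of muscle, 39.9-fold. Myl9, the regulatory light chain of smooth muscle and non-muscle myosin, had 12.54, 12.43 and 12.42 in CM, against 7.93, 6.14 and 6.24 in EB. Of the 10 largest falls by the same rule, Dppa5a (2 probes), Dppa4, Dnmt3l, Fbxo15 and Ooep are genes of pluripotent cells or oocytes. One Dppa5a probe had 4.14, 4.25 and 4.34 in CM, all undetected, against 13.49, 13.89 and 13.99 in EB, at least 512-fold lower in CM, and the other was 291-fold lower.

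The remaining large falls were Trh, Ifitm1, Cryba1 and Dcn. Trh, the gene of thyrotropin-releasing hormone, had 4.16, 4.19 and 4.18 in CM, against 11.80, 11.53 and 11.48 in EB and a mean of 12.59 in undifferentiated ES cells, at least 113-fold lower in CM. Ifitm1, an interferon-induced membrane protein, was at least 74.6-fold lower by the probe with the largest fall. Another Ifitm1 probe differed by -3.69, with means of 6.70 in CM and 10.39 in EB, and a further one by -2.44. Cryba1, a lens crystallin gene, had 4.17, 4.22 and 4.23 in CM, against 11.40, 10.45 and 10.33 in EB, at least 61.4-fold lower. It averaged 4.69 in undifferentiated ES cells, so it is high in EB only among these 3 stages of the ES line.

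Detection calls gave a second readout. The lowest log2 signal called detected was 4.74 to 4.85 on CM arrays, against 4.46 to 4.59 on EB arrays, and the part of this gap in the counts was not tested. On all 3 CM arrays and no EB array, 663 probes of 468 genes were detected, and 595 of these were on no undifferentiated ES array either. On all 3 EB arrays and no CM array, 2279 probes of 1642 genes were detected. At a detection p of 0 the counts were 821 in CM only and 1956 in EB only, and without EB replicate 1 they were 925 and 2495. Of the 2279 EB-only probes at a detection p under 0.01, 1179 were also detected on all 3 undifferentiated ES arrays and 414 on none. The EB-only set was the larger one at each of the 3 detection thresholds and without any one sample.

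The 3 EB samples differed among themselves in what they contained. EB replicate 1 was the highest EB sample for 18 of 21 sarcomere genes, with a median 0.76 above the mean of the other 2, and the lowest for 15 of 19 pluripotency genes, with a median 0.75 below. It was also the highest for 8 of 9 epithelial genes, with a median 1.72 above, and for both embryonic globin genes. For the cell cycle list the median difference was 0.06. In CM the corresponding samples lay close together: the median of the sarcomere list was 11.29, 11.12 and 11.06 in CM replicates 1 to 3, against 7.48, 6.95 and 7.05 in EB. Without EB replicate 1, 20 sarcomere, 14 calcium handling, 17 regulator, 21 cell cycle and 19 pluripotency genes were called in the stated direction, as many as with it, and the other list counts moved by 1 at most (endoderm 9, metabolism 19, stress 5 higher).

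**Figure D4:**
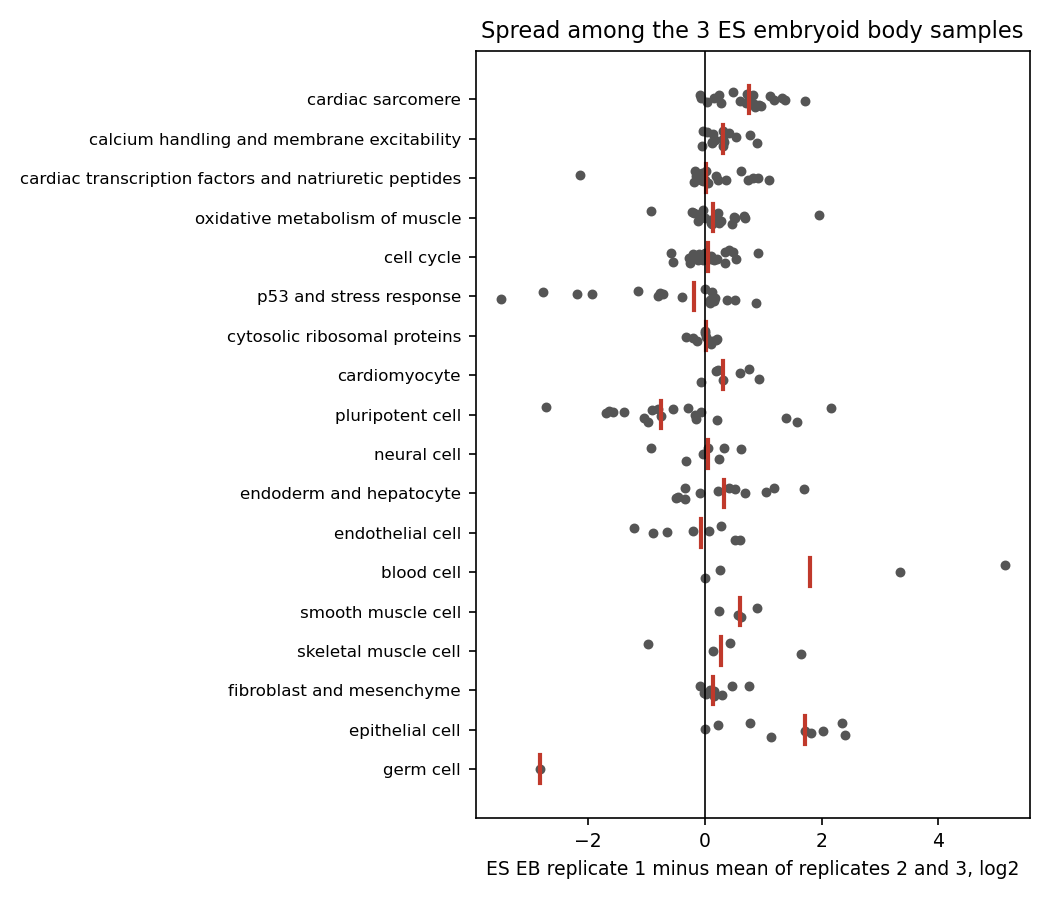
Log2 difference of EB replicate 1 from the mean of EB replicates 2 and 3 for each tested gene of 18 lists (points), with the list's median (red bar). Sarcomere and epithelial genes lie mostly to the right of 0 and pluripotency genes mostly to the left.

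The same selection in the iPS line is the closest counterpart and shares no sample with this comparison. Of the 13112 probes called in the ES line, 9744 (74.3% of the ES line's calls and 79.7% of the iPS line's 12227) were called in the same direction there, and 138 in the opposite one. In the iPS line alone, 5997 probes were higher in CM (28.5%) and 6230 lower (29.6%). The change differed between the lines, tested as the iPS line's change minus the ES line's, for 2872 probes (13.6%), 1471 more positive in the iPS line (6.99%) and 1401 more negative (6.66%). This count fell to 669 when arrays were scaled to a common median, and ran from 1891 without EB replicate 3 to 3506 without EB replicate 1.

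Sarcomere genes rose in both lines. The median was 4.49 in the ES line, against 4.47 in the iPS line, and the difference was called for 1 of 21 genes, Tpm1, at -1.53 in ES CM against -3.15 in iPS CM, each relative to its own EB. For Myh6 the difference was 0.07 ± 0.45 (limma, adjusted p = 0.95). Nppb rose by 3.20 in the ES line, against 1.63 in the iPS line (difference -1.57, adjusted p = 0.023). Nppa averaged 8.71 in CM of the ES line and 7.11 in CM of the iPS line, and its fitted changes differed by -1.86 (adjusted p = 0.00017), a size that is not exact because it was undetected in ES EB. Isl1 was higher in CM by 0.92 in the ES line and changed by -2.13 in the iPS line (adjusted p of the difference = 0.00028).

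The fall of cell cycle genes was deeper in the ES line. The median was -3.52 in the ES line, against -2.15 in the iPS line, and 16 of 22 differences were called in that direction, 1 (Plk1) in the other. Top2a changed by -4.66 in the ES line, against -2.73 in the iPS line, a difference of 1.94 (limma, adjusted p = 2.5e-05). With arrays scaled to a common median, 6 of 22 differences were called in that direction and the list's median difference was 1.08, against 1.27. Without any one ES sample, 14 to 16 were called. Among pluripotency genes, Zfp42, Esrrb, Klf2 and Dppa4 fell less and Lin28a and Dnmt3b fell more in the iPS line, while the difference for Pou5f1 was 0.70 (adjusted p = 0.19) and for Nanog 0.32 (adjusted p = 0.68). These 6 calls became 1 with arrays scaled to a common median, 2 without EB replicate 2 or 3, and 10 without EB replicate 1.

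**Figure D5:**
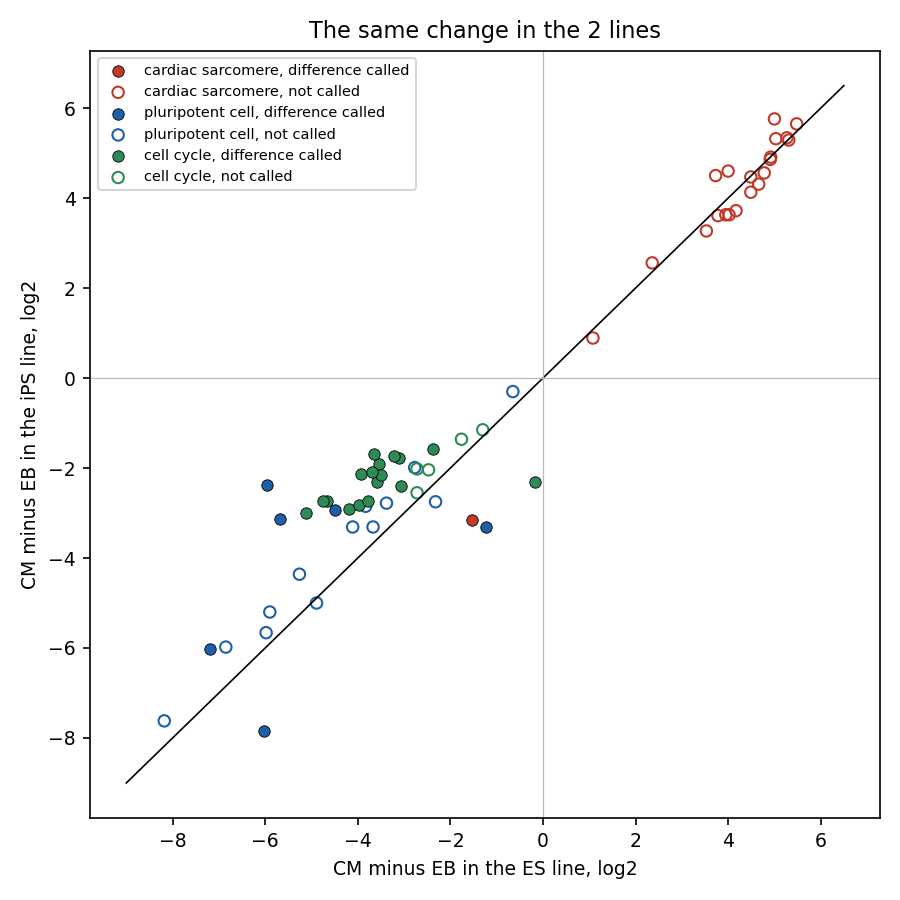
CM minus EB on the log2 scale in the ES line (horizontal axis) and the iPS line (vertical axis) for sarcomere, pluripotency and cell cycle genes; filled points are genes whose change differed between the lines (adjusted p under 0.05) and the line marks equal change. Cell cycle points lie mostly above the line, that is, closer to 0 in the iPS line.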

How the data were processed

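TRIzol-extracted total RNA was amplified to biotin-labelled cRNA (Ambion MessageAmp), per the labels' protocols. Per the file headers, the authors' main table holds mean bead intensity (linear, not normalized) and detection p-values, and the authors also deposited a table of normalized intensity. The scanner software is not given in the sources used. All 45281 rows of the main table could be matched by value to rows of the other, but only 3 matches carried the same identifier. Under the main table's identifiers, probes of 1 gene correlated across the 21 arrays at a median r of 0.956 (2910 pairs), against 0.69 (1512 pairs) under the other's. Neighbouring rows of different genes correlated at a median r of 0.348 in the main table and -0.0508 in the other. The main table's values were not normalized for this, so the check does not settle which identifiers are right. The main table's identifiers were used for their higher same-gene correlation, and all gene names rest on that choice. They were named through the platform annotation: 34885 probes had 1 symbol, 18 several and 10378 none listed there.

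The steps in limma 3.58.1 (R 4.3.3) were neqc (normexp, negative controls inferred from detection p, offset 16, quantiles, log2), probes detected on at least 3 of 21 arrays, and 1 linear model with a mean per group (3 fibroblast arrays, technical replicates, averaged), lmFit and eBayes with 12 residual degrees of freedom. Benjamini-Hochberg adjustment ran over 21047 probes. For dim probes the offset shrinks log2 changes toward 0. A gene is shown by its tested probe with the highest mean over all arrays. Where a probe was undetected on every array of a group, its fold change is a bound. For that, each dim array's value was raised, if lower, to the lowest value among that array's detected probes before averaging. List medians with members at their bounds were added after seeing the data. Summed levels are linear intensities less the offset. SE is from the fit, and replicates are independent biological ones per the series' design text. The number of arrays limits the precision. Same-numbered CM and EB come from the same batch per the labels, so the numbers pair them. Deviations of same-numbered samples correlated at -0.0318, 0.108 and -0.0713, and a block was an alternative. Named genes are the 10 called probes with the largest rise and fall whose groups do not overlap, and the list members. Members and lists were chosen with earlier results of these data known. The fit was tested on simulated data with known changes. Versions of the background correction, scaling, table, filter, variance prior, block and samples in the fit were run as alternatives. So was leaving out each CM or EB sample of the ES line, while no iPS sample was left out.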

Additional observations from a re-analysis of the deposited data

Results flagged for a closer look

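Each result here was singled out because its CM minus EB change differed between the ES and the iPS line by a test of that difference (limma, adjusted p under 0.05). The differences are the iPS line's change minus the ES line's on the log2 scale, fitted values that are not exact where a probe was undetected in a group, and 2872 of 21047 probes met this. That is 13.6% of all probes, beside which the list counts are to be read. It held for 17 of 22 cell cycle genes, 7 of 19 cardiac regulators and 6 of 19 pluripotency genes. For oxidative metabolism it was 5 of 21, endoderm 4 of 12, endothelial 4 of 8 and epithelial 4 of 9. For calcium handling it was 3 of 15, stress 3 of 18 and skeletal muscle 2 of 4. For sarcomere it was 1 of 21, cardiomyocyte 1 of 7, fibroblast 1 of 11 and germ cell 1 of 1. No list was tested as a set.

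Among the genes with the largest changes, the difference was -1.67 for Avp, 0.99 for the Dppa5a probe undetected in CM, 1.18 for Dppa4, 3.15 for Fbxo15, 5.40 for Cryba1 and 1.61 for Dcn. Cryba1 averaged 4.21 in ES CM and 10.73 in ES EB, against 4.22 in iPS CM and 5.34 in iPS EB. Among list genes with a difference of at least 2 in size, it was -3.05 for Isl1, -2.13 for Plk1, 2.02 for Mcm6, 2.12 for Tyms, 3.59 for Zfp42, 2.53 for Esrrb and -2.07 for Lin28a. It was -2.85 for Flt1, 2.25 for Esam, 3.14 for Mylpf, -2.09 for Krt8, -2.73 for Cldn6, -2.28 for Esrp1 and 3.23 for Dazl. Mylpf, a fast skeletal myosin light chain, changed in opposite directions: it had -2.20 in the ES line, against 0.94 in the iPS line. The role of EB composition in these differences was not tested.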

How the results depend on the processing

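The number of probes that differed between CM and EB was 13112. Under the other settings it lay between 10204 (arrays scaled to a common median) and 13771 (only CM and EB in the fit). With 1 ES CM or EB sample left out, it lay between 12083 and 12572. With arrays scaled to a common median the median change was -0.08, and 4612 probes were higher and 5592 lower in CM, that is 45.2% of calls higher, against 50.3%. With the culture as a fixed replicate block, 6599 probes were higher and 6531 lower, Pecam1 lost its call (adjusted p = 0.054) and Jun gained one (0.031). Detected in CM only were 558 to 821 probes and in EB only 1956 to 2198 under other detection thresholds. The difference between the lines depended most on the scaling: with a common median, 669 probes were called, 331 higher and 338 lower in the iPS line (266 and 267 at least 2-fold). With the authors' normalized table, 386 were at least 2-fold higher and 274 lower. Leaving out 1 ES CM or EB sample gave 1891 to 3506 called, 981 to 1824 higher and 910 to 1682 lower. No iPS sample was left out. List counts in the stated direction were within 1.5 times of the main counts, except under the identifiers of the other deposited table. There they were 7 for sarcomere, 4 for metabolism, 3 each for calcium handling, ribosomal, pluripotent, endoderm and epithelial genes, 2 each for cell cycle and stress, 1 each for cardiac regulators and the neural, endothelial, smooth muscle and skeletal muscle lists, and 0 for the cardiomyocyte, fibroblast and germ cell lists. Those identifiers sit on other rows than the main table's for all but 3 matches. The correlation of same-gene probes does not settle which are right. The probe filter in that run was still set by detection on the main table's rows. Its counts thus mix the choice of identifiers with a filter made for other rows. Single calls lost with a common median were Hand1 (0.073), Isl1 (0.055), Ldhb (0.71), Mdm2 (0.13), Asns (0.087), Hspa5 (0.12), Rpl3 (0.067) and Rpl22 (0.71), as adjusted p. No called direction reversed under the settings in which single genes were compared. Under the other table's identifiers only list counts were compared. Probes undetected in a group limit a fold change to a bound.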

Other observations

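Some other gene groups, chosen after their values were seen, showed marked patterns and are given as descriptions. All 7 tested small heat shock protein genes were higher in CM, with a median log2 change of 2.96. Cryab, a chaperone of the Z-disc, had 10.72, 10.80 and 10.62 in CM, against 6.26, 5.33 and 5.15 in EB. Hspb3 differed by 4.75 and Hspb1, which many cells express, by 1.10. Of 19 glycolysis genes, 10 were higher and 3 lower in CM. The muscle isoforms led, with Eno3 at 11.96, 11.82 and 11.93 in CM, against 7.99, 6.69 and 6.95 in EB, and Pgam2 differing by 4.32. The glucose transporter Slc2a3 had 6.19, 6.09 and 6.13 in CM, against 11.17, 11.81 and 11.78 in EB, while the insulin-responsive transporter Slc2a4, undetected in EB, was at least 3.22-fold higher in CM. Gapdh did not pass the test (-0.04 ± 0.11).

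Of 12 genes of the Nodal pathway, 8 were lower in CM and 1 was higher. The ligand Nodal had 4.16, 4.27 and 4.33 in CM, all undetected, against 7.49, 8.35 and 8.17 in EB, and its antagonists Lefty1 and Lefty2 were at least 12.6-fold and 10.7-fold lower. The convertase Furin, which cleaves the Nodal precursor among many others, was higher in CM by 3.35. Of 8 genes for DNA methylation or its readers and erasers, 7 were lower in CM, with Uhrf1, which recruits the maintenance methyltransferase at replication, at -4.91 ± 0.17.

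Core histone genes split. Of 50 tested, 35 were lower and 7 higher in CM, with a median of -1.27. H2ac12 had 8.52, 7.94 and 7.73 in CM, against 12.44, 12.67 and 12.63 in EB. H2ac18 went the other way, with 9.35, 9.52 and 9.45 in CM, against 6.35, 6.20 and 6.32 in EB, and H2bc4 differed by 2.47. Histone genes are near-identical copies, so a probe may read several of them, and whether the difference lies in polyadenylated forms was not tested.

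The genes whose change differed most between the lines, also chosen after their values were seen, included the phosphatase gene Dusp2. It averaged 5.00 in ES CM and 5.17 in ES EB, against 10.19 in iPS CM and 5.09 in iPS EB, a difference of 5.27 ± 0.26 (limma, adjusted p = 6.1e-09). Il15, a cytokine gene, averaged 4.95 in ES CM and 4.88 in ES EB, against 8.94 in iPS CM and 4.75 in iPS EB. The neural factor Olig1 averaged 4.47 in ES CM and 4.63 in ES EB, against 4.29 in iPS CM and 9.23 in iPS EB.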
